A study of Mus musculus with 12 samples.

Results

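Pck1, Fbp1, G6pc, Pklr and Glul are 5 mouse genes for enzymes that make or break down glucose precursors or make glutamine. They were taken as every probe set whose platform annotation names exactly 1 of these symbols, which gave 9 of the 22626 probe sets tested and 5 of the 12393 genes with 1 symbol. Pklr had 3 probe sets, Pck1 and Glul had 2 each, and Fbp1 and G6pc had 1 each. The genes were chosen by measured values of these arrays: Glul, Pklr, Fbp1 and G6pc were selected on their higher log2 levels in POR-null than in wild-type mice on the control diet. Pck1 does not differ there, and on which values it was included is not given. The control-diet difference is therefore given below as a description, with no test.

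RNA came from ileum of male C57BL/6 mice aged 6 to 8 weeks, and each array held a pool of 3 mice. The 4 groups of 3 arrays were POR-null mice on quercetin, POR-null mice on the control diet, wild-type mice on quercetin and wild-type mice on the control diet. POR-null mice lack cytochrome P450 reductase, the enzyme that hands electrons to microsomal P450 enzymes, and where in the body it was deleted is not stated in the labels. All 4 groups ate a soya-free powdered diet for 14 days. The quercetin groups then received 7 mg of this plant flavonol per mouse in the diet (6.2 g per kg), and tissue was taken after 24 h. The genotype labels could not be checked on Por itself, since none of the probe sets had that symbol. The labels call the samples separate pools, so p-values measure the spread between pools.

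Gluconeogenesis builds glucose from smaller molecules. Pck1 makes phosphoenolpyruvate from oxaloacetate, Fbp1 removes a phosphate from fructose bisphosphate, and G6pc is the catalytic subunit that frees glucose from its phosphate. Pklr, the pyruvate kinase of liver and red cells, runs the opposite way at the end of glycolysis. Glul joins ammonia to glutamate to make glutamine, which is a main fuel of small intestinal epithelium.

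The windows around the transcript starts are shown because 4 of the 5 genes were chosen for a difference in the same direction. RefSeq (GRCm38.p6) gave a window for all 5 genes, running from 250 bases before the start to 50 after it, and 2 for Pklr. Pklr has tandem starts, an upstream one used in red cells and a downstream one used in liver, and only the downstream window is printed. The windows lie at chr2:173152823-173153122 (plus strand, Pck1), chr13:62888233-62888532 (minus strand, Fbp1), chr11:101367466-101367765 (plus strand, G6pc), chr3:89136373-89136672 (plus strand, Pklr) and chr1:153899679-153899978 (plus strand, Glul). Each is written 5′ to 3′ on the strand of its gene. Capitals mark matches on either strand to the 7 motifs searched.
Pck1: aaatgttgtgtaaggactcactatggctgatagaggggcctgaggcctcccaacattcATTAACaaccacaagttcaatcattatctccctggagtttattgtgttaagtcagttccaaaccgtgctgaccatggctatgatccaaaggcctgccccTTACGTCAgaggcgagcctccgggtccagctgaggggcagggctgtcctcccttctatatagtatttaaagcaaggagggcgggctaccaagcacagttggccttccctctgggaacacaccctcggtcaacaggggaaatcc
Fbp1: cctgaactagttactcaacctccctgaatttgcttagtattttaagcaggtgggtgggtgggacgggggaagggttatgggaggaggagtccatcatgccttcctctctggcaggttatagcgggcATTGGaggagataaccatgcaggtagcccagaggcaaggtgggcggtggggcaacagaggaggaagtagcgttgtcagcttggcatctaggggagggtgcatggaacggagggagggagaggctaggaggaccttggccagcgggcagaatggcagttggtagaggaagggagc
G6pc: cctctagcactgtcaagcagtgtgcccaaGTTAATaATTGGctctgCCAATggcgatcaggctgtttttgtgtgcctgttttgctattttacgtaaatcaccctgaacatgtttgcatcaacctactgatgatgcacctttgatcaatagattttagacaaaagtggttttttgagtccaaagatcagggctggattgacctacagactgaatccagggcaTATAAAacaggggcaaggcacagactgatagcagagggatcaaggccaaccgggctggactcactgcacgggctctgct
Pklr: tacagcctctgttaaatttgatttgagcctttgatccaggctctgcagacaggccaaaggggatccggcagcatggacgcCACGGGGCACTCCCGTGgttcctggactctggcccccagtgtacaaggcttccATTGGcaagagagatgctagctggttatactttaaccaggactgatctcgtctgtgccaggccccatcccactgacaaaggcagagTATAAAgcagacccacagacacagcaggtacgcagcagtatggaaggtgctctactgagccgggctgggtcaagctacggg
Glul: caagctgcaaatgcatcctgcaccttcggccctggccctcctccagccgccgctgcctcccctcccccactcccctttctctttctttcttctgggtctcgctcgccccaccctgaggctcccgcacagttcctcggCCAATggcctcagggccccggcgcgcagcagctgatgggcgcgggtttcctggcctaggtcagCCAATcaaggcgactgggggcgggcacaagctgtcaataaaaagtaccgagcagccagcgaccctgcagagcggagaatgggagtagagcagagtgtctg

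The motifs searched were TGACGTCA (a general cAMP response element), TTACGTCA (the cAMP response element known from the Pck1 promoter), CACGTG (an E-box), GTTAAT (a core of HNF1 sites), TATAAA (found upstream of some starts), CCAAT (bound by NF-Y) and an element made of CACGGG and its reverse complement CCCGTG with 5 bases between them. The last is the carbohydrate response element of the liver-type Pklr promoter and was added after these windows had been read. It was found from base -170 to -154 of the downstream Pklr window and in 1 of the 32851 windows of the table (0.00304%). TTACGTCA lay from -93 to -86 in Pck1 and was present in 0.499% of all windows, while TGACGTCA (1.79% of all windows) and CACGTG (7.15%) were in none of the 5 printed. GTTAAT, present in 7.1% of all windows, matched in Pck1 and G6pc. TATAAA, present in 13.6%, matched in G6pc and in the downstream Pklr window. CCAAT, present in 37.4%, matched in Fbp1, G6pc, Pklr and Glul, so no motif was shared by all 5 genes. In the G6pc window, the GTTAAT match was separated from a CCAAT match on the other strand by 1 base. Matches describe letters in these windows and were not tested as sites.

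Values below are log2 expression levels. Where a gene has several probe sets, the one whose mean level across the 12 arrays was highest stands for it. Levels of different probe sets are not set against each other, since probes differ in their signal. In bulk tissue, fewer cells of a type and less RNA per cell cannot be told apart.

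On the quercetin diet, POR-null mice had higher values than wild-type mice for Pck1, Pklr and Glul, a lower value for Fbp1 and the same mean for G6pc. The question was how the genotypes differed under exposure. The 6 quercetin arrays did not enter the control-diet difference on which Glul, Pklr, Fbp1 and G6pc were selected. The same cannot be said of Pck1, so its quercetin values are best read as a description. The control arrays did enter limma's variance estimate, since all groups were fitted together, so the test is not fully independent of the selection. With only the arrays compared, limma's unadjusted p rose from 0.0101 to 0.0245 for Glul. It fell from 0.0396 to 0.0139 for Fbp1 and from 0.107 to 0.0658 for Pklr. None of the 9 probe sets passed limma's test at an adjusted p under 0.05, and 0% of all 22626 probe sets did. At an unadjusted p under 0.05 there were 5 of 9, 4 higher and 1 lower, where 7.01% of all probe sets lay under it (3.87% higher and 3.14% lower). The higher ones include the Pck1 probe set 1423439_at, for which the count is a description only. Probe sets of a gene are not independent of each other.

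Pck1, the entry enzyme of gluconeogenesis, was at 8.47, 8.28 and 8.58 in the POR-null quercetin arrays, against 8.23, 6.48 and 7.78 in the wild-type quercetin arrays. The groups did not overlap, although the closest arrays were 8.28 and 8.23. The difference was 0.95 ± 0.39 (log2, SE), or 1.93-fold. It is given as a description, since Pck1 may have been included on these values. Without wild-type quercetin replicate 2, the array at 6.48, the difference was 0.44. The other probe set of Pck1 was dim, at 3.61, 3.84 and 3.67 in POR-null quercetin arrays against 3.46, 3.52 and 3.62 in wild-type quercetin arrays. Its groups overlapped, with a difference of 0.17 ± 0.09.

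Wild-type quercetin replicate 2 also stood apart in other genes. Car1, a carbonic anhydrase abundant in colon, was at 10.17 in it and between 6.04 and 7.54 in the other 11 arrays, and the water channel Aqp8 was at 6.63, against 4.86 to 5.38. The other 4 colon genes measured (Car4, Slc26a3, Clca1 and Hoxb13) lay within the range of the other arrays, with a score of -0.09 (log2, mean of the genes after centring each on its 12-array mean). Its score for 10 proximal small intestine genes was the lowest, -0.43. The part of tissue sampling in the low Pck1 value was not tested.

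Fbp1, the phosphatase that acts after Pck1 on the way to glucose, was at 7.90, 7.54 and 7.83 in POR-null quercetin arrays. In wild-type quercetin arrays it was at 7.99, 8.04 and 8.14, all above the POR-null arrays. The difference was -0.30 ± 0.13, or 0.812-fold, with an interval of -0.58 to -0.02 (limma, adjusted p = 0.691). Without POR-null quercetin replicate 2, the lowest array, it was -0.19.

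G6pc, which acts at the last step of glucose release, was at 7.53, 7.78 and 7.63 in POR-null quercetin arrays, against 7.70, 7.46 and 7.78 in wild-type quercetin arrays. Both means were 7.65, and the interval of the difference ran from -0.32 to 0.32 (limma, adjusted p = 1). The arrays were fully interleaved. That interval is unadjusted and does not mark what the adjusted test could detect. At 1421258_a_at of Pklr, a difference of 0.47 ± 0.10 did not pass either (limma, adjusted p = 0.34).

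Pklr was higher in POR-null mice at each of its 3 probe sets, but the size differed between them. The probe set standing for the gene (1438711_at) was at 9.14, 9.06 and 9.25 in POR-null quercetin arrays, against 8.77, 9.13 and 8.93 in wild-type quercetin arrays, and the groups overlapped. Its difference was 0.21 ± 0.12, with an interval of -0.05 to 0.46 (adjusted p = 0.754), and 0.12 without wild-type quercetin replicate 1. At 1421258_a_at the values were 9.23, 9.05 and 9.33 in POR-null quercetin arrays, against 8.66, 8.63 and 8.90 in wild-type quercetin arrays, with no overlap. That difference was 0.47 ± 0.10, or 1.39-fold, with an interval of 0.25 to 0.70. Its unadjusted p of 0.000469 was the smallest among the 9 probe sets, and its limma adjusted p was 0.34. At 1421259_at the groups did not overlap either, with 8.50, 8.54 and 8.69 in POR-null against 8.21, 8.22 and 8.41 in wild type. The difference there was 0.30 ± 0.09 (adjusted p = 0.511).

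Glul, glutamine synthetase, was at 7.50, 7.33 and 7.22 in POR-null quercetin arrays, against 6.68, 7.25 and 7.04 in wild-type quercetin arrays. Only wild-type replicate 2 reached into the POR-null range. The difference was 0.36 ± 0.12, or 1.28-fold, with an interval of 0.10 to 0.62 (limma, adjusted p = 0.581). It was 0.20 without wild-type quercetin replicate 1, the lowest array. The other Glul probe set was at 6.61, 6.40 and 6.30 in POR-null and at 5.92, 6.51 and 6.31 in wild type, with a difference of 0.19 ± 0.15 (adjusted p = 0.814).

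**Figure D1:**
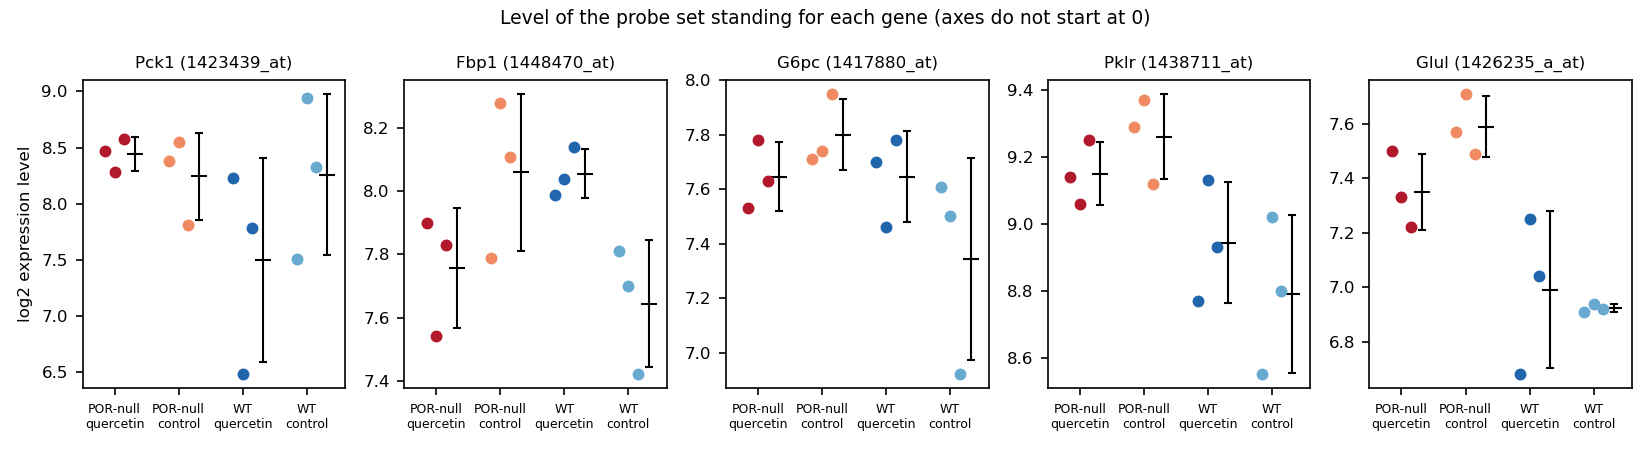
Log2 expression level (vertical axis, not starting at 0) of the probe set standing for Pck1, Fbp1, G6pc, Pklr and Glul in each array of the 4 groups. Points are arrays and the bar beside them is the mean ± SD (n = 3). The wild-type quercetin array at 6.48 sets the wide Pck1 bar, and the wild-type control arrays of Glul lie within 6.91 to 6.94.

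Counted by whether the groups of 3 overlapped, 3 of 9 probe sets were higher in POR-null on quercetin without overlap (1 of Pck1 and 2 of Pklr) and 1 was lower (Fbp1). Over all probe sets, 7.28% were higher and 5% were lower in this way. As above, the Pck1 probe set enters this count as a description only. The number of arrays limits the test: 3 against 3 arrays cannot give an exact two-sided permutation p below 0.1 for a given gene.

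On the control diet, the comparison used to choose the genes, 4 of the 5 genes were higher in POR-null mice and Pck1 was level. Limma's test at an adjusted p under 0.05 called 0% of all probe sets in this comparison. Glul was at 7.57, 7.71 and 7.49 in POR-null control arrays, against 6.91, 6.94 and 6.92 in wild-type control arrays, a difference of 0.67 ± 0.12, or 1.59-fold. At this probe set, the wild-type control arrays spanned only 0.03 and lay below every POR-null array of either diet. Its other probe set differed by 0.42 ± 0.15, with 6.52, 6.78 and 6.64 against 5.95, 6.25 and 6.47, and the groups did not overlap.

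The 3 Pklr probe sets were also higher in POR-null control arrays without overlap, by 0.47 ± 0.12, 0.35 ± 0.10 and 0.25 ± 0.09. The probe set standing for Pklr was at 9.29, 9.37 and 9.12 in POR-null control arrays, against 8.55, 9.02 and 8.80 in wild-type control arrays. G6pc was at 7.71, 7.74 and 7.95 in POR-null control arrays and at 7.61, 7.50 and 6.92 in wild-type control arrays, a difference of 0.46 ± 0.15. Here the gap was set largely by wild-type control replicate 3, and without it the G6pc difference was 0.24.

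Fbp1 was at 7.79, 8.28 and 8.11 in POR-null control arrays, against 7.81, 7.70 and 7.42 in wild-type control arrays, and the groups overlapped. Its difference was 0.42 ± 0.13. Pck1 was at 8.38, 8.55 and 7.81 in POR-null control arrays, against 7.51, 8.94 and 8.33 in wild-type control arrays, a difference of -0.01 ± 0.39. It was 0.33 without wild-type control replicate 2 and -0.39 without wild-type control replicate 1, so that group's own spread covered either sign. In all, 6 of 9 probe sets were higher without overlap and 0 were lower, where 5.15% of all probe sets were higher and 8.71% lower in this way. Since this contrast chose the genes, nothing is read from that count.

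**Figure D2:**
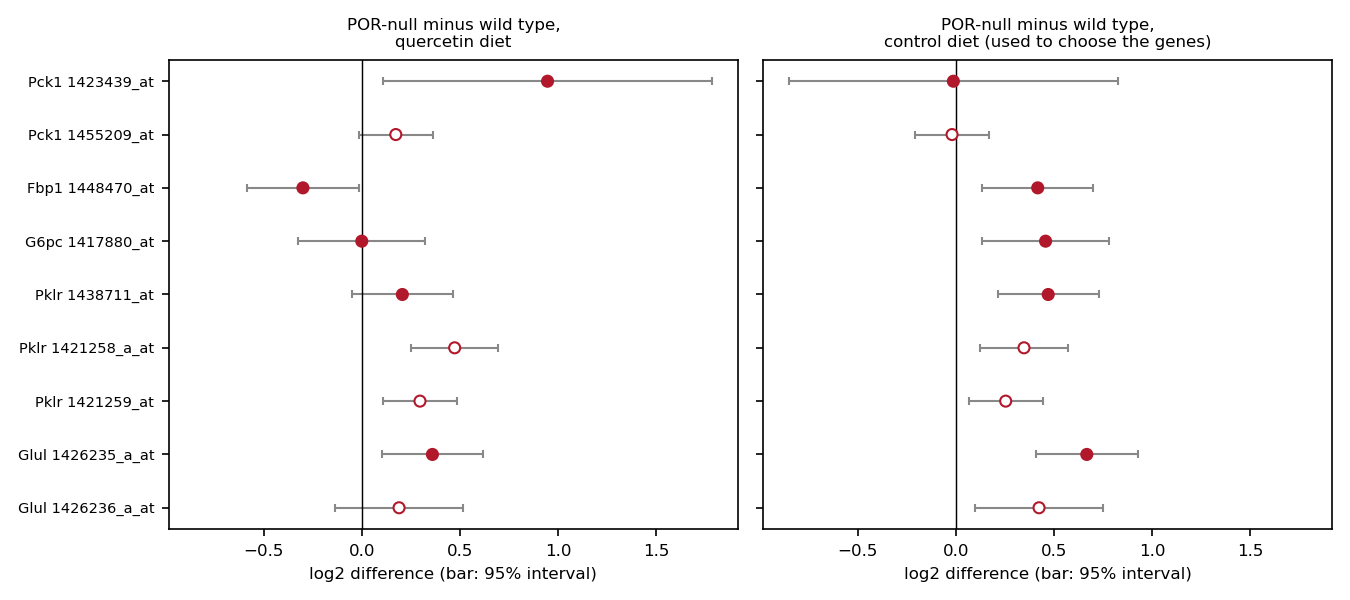
Log2 difference, POR-null minus wild type, for the 9 probe sets on the quercetin diet (left) and the control diet (right). Filled points stand for the gene, open points are its other probe sets, and bars are 95% intervals. Fbp1 is at -0.30 on quercetin and 0.42 on control, G6pc at 0.00 and 0.46, and all 3 Pklr probe sets lie above 0 on both diets.

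With both diets put together, the 6 POR-null arrays lay above the 6 wild-type arrays at 2 of the 9 probe sets, both of Pklr. At 1421258_a_at the POR-null arrays ran from 9.05 to 9.33 and the wild-type arrays from 8.63 to 9.02. At 1421259_at they ran from 8.47 to 8.69 in POR-null and from 8.18 to 8.42 in wild type. Of all probe sets, 0.172% were higher and 0.141% lower in this way, and the count takes in the control arrays used for the choice. The third Pklr probe set overlapped, with 9.06 to 9.37 in POR-null and 8.55 to 9.13 in wild type. The probe set standing for Glul overlapped only through POR-null quercetin replicate 3 (7.22) and wild-type quercetin replicate 2 (7.25). The other Glul probe set overlapped more widely, with 6.30 to 6.78 in POR-null and 5.92 to 6.51 in wild type.

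**Figure D3:**
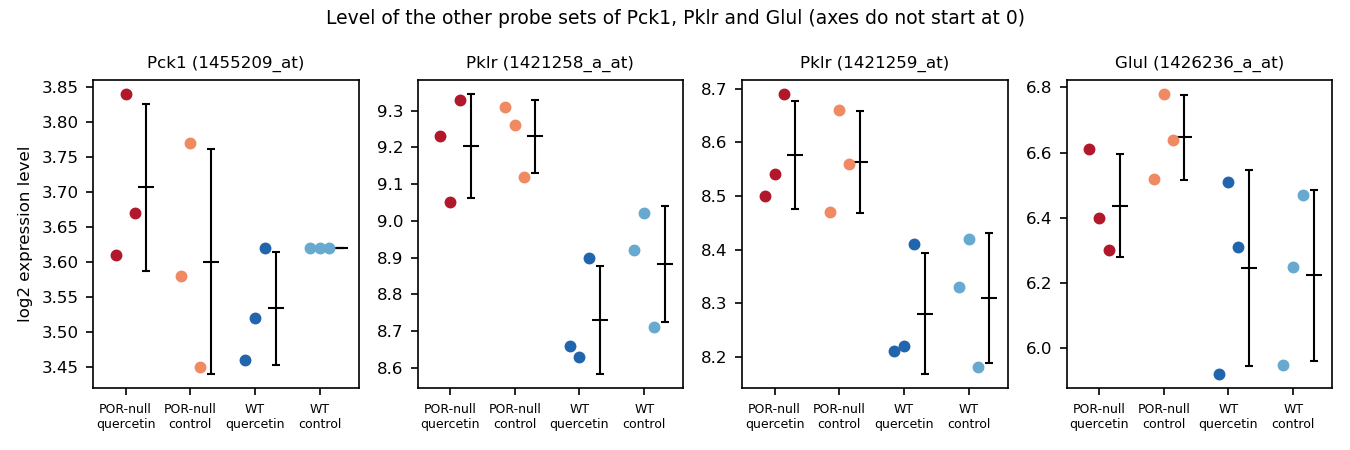
Log2 expression level (vertical axis, not starting at 0) of the remaining probe sets of Pck1, Pklr and Glul by array and group, with mean ± SD (n = 3). Both Pklr probe sets hold every POR-null array above every wild-type array. The second Pck1 probe set is dim, between 3.45 and 3.84.

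The diet comparisons asked how each genotype responded to quercetin, and they share control arrays with the genotype comparison above, so they are given as values without a test. In POR-null mice, quercetin minus control was -0.30 ± 0.13 for Fbp1, -0.15 ± 0.15 for G6pc, -0.11 ± 0.12 for Pklr, -0.24 ± 0.12 for Glul and 0.20 ± 0.39 for Pck1. Single arrays carried much of this: the Fbp1 value was -0.19 when replicate 2 of either POR-null group was left out. The G6pc value was -0.08 and the Pck1 value -0.02 without POR-null control replicate 3. For Pklr it was -0.06 without POR-null control replicate 2 and -0.18 without POR-null control replicate 3. Limma's test at an adjusted p under 0.05 called 0% of all probe sets here. In none of the 9 probe sets were the quercetin and control arrays of POR-null mice without overlap, where 7.45% of all probe sets were higher and 5.11% lower on quercetin.

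In wild-type mice, quercetin minus control was 0.41 ± 0.13 for Fbp1, 0.30 ± 0.15 for G6pc, 0.15 ± 0.12 for Pklr, 0.07 ± 0.12 for Glul and -0.76 ± 0.39 for Pck1. Fbp1 was the only one of the 9 probe sets without overlap, with 7.99 to 8.14 on quercetin and 7.42 to 7.81 on control. Of all probe sets, 5.33% were higher and 8.08% lower in this way, and limma's test at an adjusted p under 0.05 called 0.00442%. The G6pc value was 0.09 without wild-type control replicate 3, and the Pck1 value was -0.26 without wild-type quercetin replicate 2 and -0.42 without wild-type control replicate 2. Without wild-type quercetin replicate 2, Glul was at -0.06 and Pklr at 0.06. Without wild-type quercetin replicate 1 they were at 0.22 and 0.24, and Pklr was at 0.03 without wild-type control replicate 1 and at 0.27 without wild-type control replicate 2. The other Pklr probe sets differed by -0.15 ± 0.10 and -0.03 ± 0.09, opposite in sign to the one standing for the gene.

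The difference between the diet effects, POR-null minus wild type, was -0.72 ± 0.19 for Fbp1, -0.46 ± 0.21 for G6pc, -0.31 ± 0.17 for Glul, -0.26 ± 0.17 for Pklr and 0.96 ± 0.55 for Pck1. It contains the control-diet contrast and has no test here. Only Fbp1 kept its value within 1.5 times when any array was left out. The G6pc value was -0.24 without wild-type control replicate 3. That of Pck1 was 0.45 without wild-type quercetin replicate 2 and 0.62 without wild-type control replicate 2. That of Glul was -0.18 without wild-type quercetin replicate 2 and -0.46 without wild-type quercetin replicate 1. That of Pklr was -0.17 without wild-type quercetin replicate 2 and -0.14 without wild-type control replicate 1. For Pklr it was 0.13 ± 0.15 and 0.04 ± 0.12 at the other probe sets. Fbp1 thus had its lowest mean in wild-type control arrays (7.64 ± 0.20, SD, n = 3), followed by POR-null quercetin (7.76 ± 0.19), wild-type quercetin (8.06 ± 0.08) and POR-null control (8.06 ± 0.25). Among these neighbours, only POR-null quercetin and wild-type quercetin were apart without overlap.

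For the other genes the order of group means was mostly within the spread. G6pc ran down from POR-null control (7.80 ± 0.13, SD, n = 3) through both quercetin groups (7.65 ± 0.13 in POR-null and 7.65 ± 0.17 in wild type) to wild-type control (7.34 ± 0.37), and each neighbouring pair overlapped. Glul ran from POR-null control (7.59 ± 0.11) through POR-null quercetin (7.35 ± 0.14) and wild-type quercetin (6.99 ± 0.29) to wild-type control (6.92 ± 0.02), again with overlap between neighbours. The probe set standing for Pklr had the same order of groups, from 9.26 ± 0.13 to 8.79 ± 0.24. Its other probe sets had wild-type quercetin lowest instead, at 8.73 ± 0.15 (1421258_a_at) and 8.28 ± 0.11 (1421259_at), and the second of them had POR-null quercetin highest, at 8.58 ± 0.10. Pck1 was highest in POR-null quercetin (8.44 ± 0.15) and lowest in wild-type quercetin (7.50 ± 0.91), with wild-type control (8.26 ± 0.72) and POR-null control (8.25 ± 0.39) between them.

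The rest of the pathway gave no called gene on the quercetin diet. Of 16 measured genes of gluconeogenesis, including Pck1, Fbp1 and G6pc, limma called 0, with 8 higher and 6 lower in POR-null and a median difference of 0.01. The median difference of all genes tested was 0.02, with 55.5% of them higher and 43.2% lower. Beside Pck1 and Fbp1, the smallest p-values on the list were those of the aspartate aminotransferases, cytosolic Got1 (0.31 ± 0.21) and mitochondrial Got2 (-0.10 ± 0.08).

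Of 17 measured glycolysis genes, 8 were higher, 9 lower and 0 called, with a median of -0.02. Those with the smallest p were the muscle-type mutase Pgam2 (0.20 ± 0.08), the lactate dehydrogenase subunits Ldhb (0.15 ± 0.07) and Ldha (-0.20 ± 0.10), and the liver phosphofructokinase Pfkl (-0.30 ± 0.16). On the control diet, 14 of these 17 were lower in POR-null with a median of -0.11, against 56% lower and a median of -0.02 over all genes. Pklr at 0.47 was the highest of the list, but it was chosen on that comparison, so nothing is read from its place. The diet comparison in wild type shares the wild-type control arrays. There 15 of the 17 were lower on quercetin (median -0.07), against 56.4% of all genes. By diet in POR-null, 8 were higher and 9 lower. Of 5 fructose entry genes, 2 were higher and 3 lower on quercetin. Ketohexokinase Khk, which phosphorylates fructose, was at 9.03 ± 0.10 in POR-null and 9.30 ± 0.03 in wild type (SD, n = 3), a difference of -0.27 ± 0.12 (limma, adjusted p = 0.695).

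At the branch where pyruvate enters mitochondria, 7 of 9 genes were lower in POR-null on quercetin, with a median of -0.09 and 0 called. Over all genes tested, 43.2% were lower. Pdk2, a kinase that switches off pyruvate dehydrogenase, went the other way. It was at 8.61 ± 0.12 in POR-null and 8.25 ± 0.09 in wild type (SD, n = 3), a difference of 0.36 ± 0.11 (limma, adjusted p = 0.521). Pdk1, another such kinase, differed by -0.18 ± 0.08, and Pdha1, a subunit of the dehydrogenase itself, by -0.13 ± 0.07. The pyruvate carrier subunit Mpc1 differed by -0.14 ± 0.11.

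Of 17 measured glutamine and glutamate genes, 10 were higher, 7 lower and 0 called on quercetin, with a median of 0.03. Beside Glul, asparagine synthetase Asns, which uses glutamine as its nitrogen donor, differed by 0.42 ± 0.19 (7.83 ± 0.09 in POR-null and 7.41 ± 0.25 in wild type; limma, adjusted p = 0.704). The glutamine transporter Slc38a3 differed by 0.20 ± 0.10 and Ppat, which uses glutamine to start purine synthesis, by 0.16 ± 0.09. Among 9 genes of the urea cycle and of citrulline and proline metabolism, 3 were higher, 6 lower and 0 called, with proline dehydrogenase Prodh at -0.19 ± 0.08, Aldh4a1 at -0.12 ± 0.13, the arginase Arg2 at -0.17 ± 0.19 and Nags at 0.06 ± 0.09. Of 11 glycogen genes, 5 were higher, 6 lower and 0 called. Phosphoglucomutase Pgm1 was at -0.26 ± 0.11, the branching enzyme Gbe1 at -0.11 ± 0.07, glycogen synthase Gys1 at 0.10 ± 0.06 and Pgm2 at 0.19 ± 0.13.

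Of 19 measured regulators known to act on gluconeogenic genes, mainly in liver, 15 were lower, 4 higher and 0 called on quercetin, with a median of -0.08. Over all genes tested, 43.2% were lower and 55.5% higher. Of the 19, 0 had an unadjusted limma p under 0.05, so the differences were small beside their spread. They included the fatty acid receptor Ppara (-0.27 ± 0.15), the CREB coactivator Crtc2 (-0.13 ± 0.10) and the transcription factor Creb3l3 (-0.15 ± 0.11), while the coactivator Ppargc1a was at 0.16 ± 0.13. On the control diet, the same list had a median of 0.06, with 11 higher and 8 lower.

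**Figure D4:**
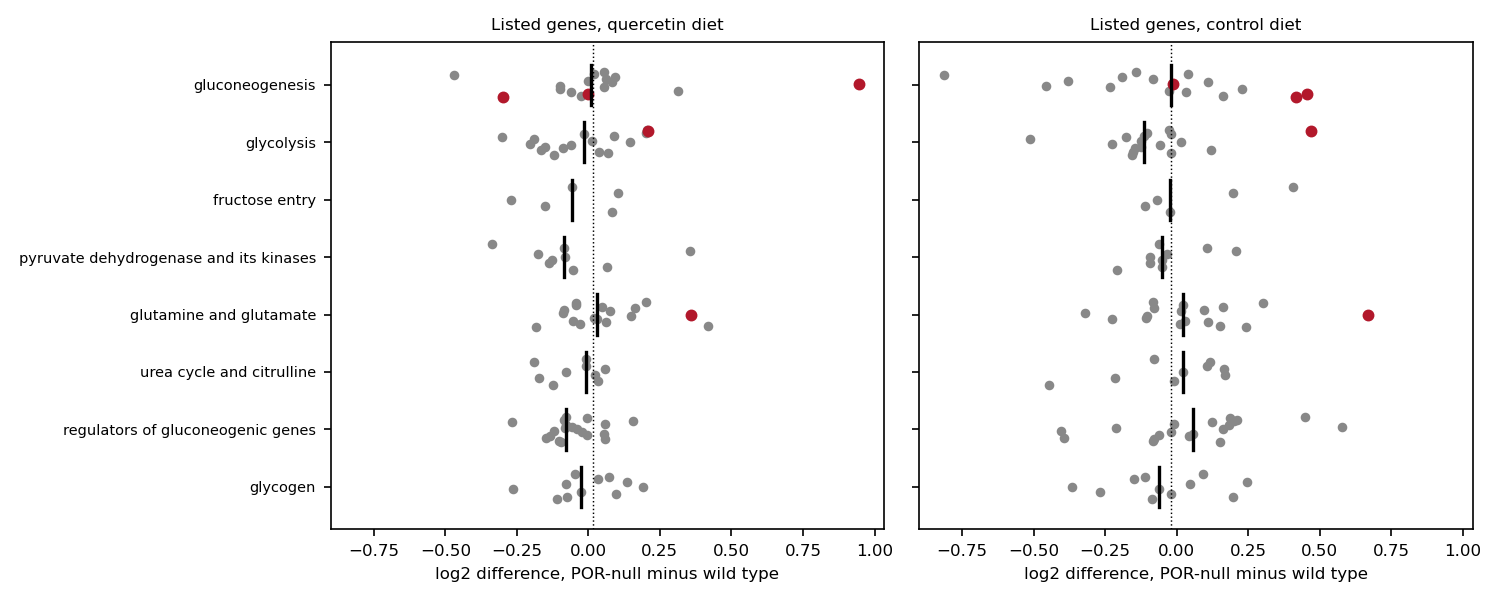
Log2 difference, POR-null minus wild type, of every measured gene of 8 lists on the quercetin diet (left) and the control diet (right). Red points are Pck1, Fbp1, G6pc, Pklr and Glul, grey points are the other listed genes, the black bar is the list's median and the dotted line the median of all genes tested (0.02 on quercetin and -0.02 on control). List medians lie between -0.11 and 0.06. Glul, Pklr, G6pc and Fbp1 stand to the right of theirs on the control diet, the comparison used to choose them.

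Genes with the most similar levels over the 12 arrays were looked up for each enzyme among 7207 named genes above the median level, as a description with arrays of 4 groups in each correlation. For Glul these were Lamb3, a laminin chain (Pearson r = 0.905), Slc13a1, a sulfate transporter (0.903), and Rab3ip (0.883). For Pklr they were Hook2 (0.929), the autophagy receptor Nbr1 (0.909) and Glyr1 (0.881). For G6pc they were Cd302 (0.936), the co-chaperone Dnaja2 (0.926) and Chgb, a granule protein of endocrine cells (0.899). For Fbp1 they were Arf5 (0.940), Sav1, a scaffold of Hippo signalling (0.893), and Upf2, a factor of nonsense-mediated decay (0.892). For Pck1 they were Unc45a (0.894), Ppp1r12c (0.885) and the apoptosis initiator Casp9 (0.866). No gene was named for more than 1 enzyme. Picking the highest of 7207 correlations over 12 arrays favours a high r, and no reference for it was worked out.

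Array medians lay between 5.91 and 5.96, and pairs of arrays correlated with r of 0.9897 or more. Wild-type control replicate 2 lay at -25.6 on the first principal component (19.7% of the variance) and the other 11 arrays between -10.8 and 10.6. That array had the highest score of 10 proximal small intestine genes, 0.83, and the highest Pck1 level of all 12 arrays, 8.94. The 8 enterocyte markers varied little, with scores from -0.04 to 0.09 and mean levels of 11.38 to 11.51. The ileal markers were present, with mean levels of 9 genes between 9.72 and 10.16.

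Genes of smooth muscle and stroma had higher values in POR-null mice on both diets, as Glul and Pklr did. All 16 measured ones were higher in POR-null on quercetin (median 0.24) and all 16 on control (median 0.42), with 0 called by limma. Their mean level ranged over 6.50 to 6.88 in POR-null quercetin and 5.97 to 7.21 in POR-null control arrays. In wild type it ranged over 5.87 to 6.71 in quercetin and 5.83 to 6.25 in control arrays. POR-null control replicate 2 had a muscle score of -0.44, within the wild-type range of -0.58 to 0.30, and the highest level of all arrays at the probe sets standing for Glul (7.71) and Pklr (9.37). At the other Pklr probe sets it was at 9.26 and 8.66, below the highest arrays (9.33 and 8.69). Wild-type quercetin replicate 2 had the highest wild-type muscle score, 0.30, and the highest wild-type level at the probe sets standing for Glul (7.25) and Pklr (9.13). At 1421258_a_at of Pklr it was the lowest wild-type array (8.63), and at 1421259_at it was at 8.22, where wild-type arrays reached 8.42. Over the 12 arrays, which come from 4 groups, Pearson r with the muscle score was 0.56 and 0.47 for the Glul probe sets and 0.56, 0.36 and 0.25 for the Pklr probe sets. The part of stroma in the Glul and Pklr differences was not tested.

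Mean segment scores differed between diets in opposite directions in the genotypes, with a wide spread in wild type and no test. The proximal score was 0.12 ± 0.11 in POR-null quercetin, -0.24 ± 0.08 in POR-null control, -0.12 ± 0.37 in wild-type quercetin and 0.24 ± 0.52 in wild-type control arrays (SD, n = 3). The ileal score was -0.12 ± 0.07, 0.01 ± 0.18, 0.13 ± 0.16 and -0.02 ± 0.07 in the same groups. Of its 9 genes, Fgf15 differed most between genotypes on quercetin, by -2.35 ± 0.44 (SE). The median of the list there was -0.01, with 3 genes higher and 6 lower in POR-null. Fgf15 also differed most by diet, at 1.25 ± 0.44 in wild type and -0.91 ± 0.44 in POR-null mice. The list medians for diet were 0.03 and -0.02. Fbp1 had its lower means in the same groups as the ileal score, and so did the score of 8 B and plasma cell genes. That score was -0.13 ± 0.17 in POR-null quercetin, 0.06 ± 0.22 in POR-null control, 0.26 ± 0.13 in wild-type quercetin and -0.19 ± 0.26 in wild-type control arrays, with mean levels from 7.39 to 8.19 over all arrays. On quercetin, 6 of the 8 genes were lower in POR-null, with a median of -0.45, 0 called by limma and 5 under an unadjusted p of 0.05. The B cell receptor subunit Cd79b had the largest difference, -0.81 ± 0.13 (limma, adjusted p = 0.132). The 2 higher genes were the antibody genes Igha (0.20 ± 0.24) and Jchain (0.14 ± 0.28), so the list did not move as a whole. Over the 12 arrays Fbp1 had a Pearson r of 0.64 with the ileal score and 0.31 with the B and plasma cell score. The probe set standing for Pck1 had an r of 0.63 with the proximal score and -0.69 with the ileal score. At the dim Pck1 probe set these were 0.04 and -0.17. The part of segment sampling in the Fbp1 and Pck1 values, or of B cells in the Fbp1 values, was not tested. The 7 hepatocyte markers and 6 pancreatic acinar markers had scores within -0.09 to 0.10 and -0.15 to 0.13.

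**Figure D5:**
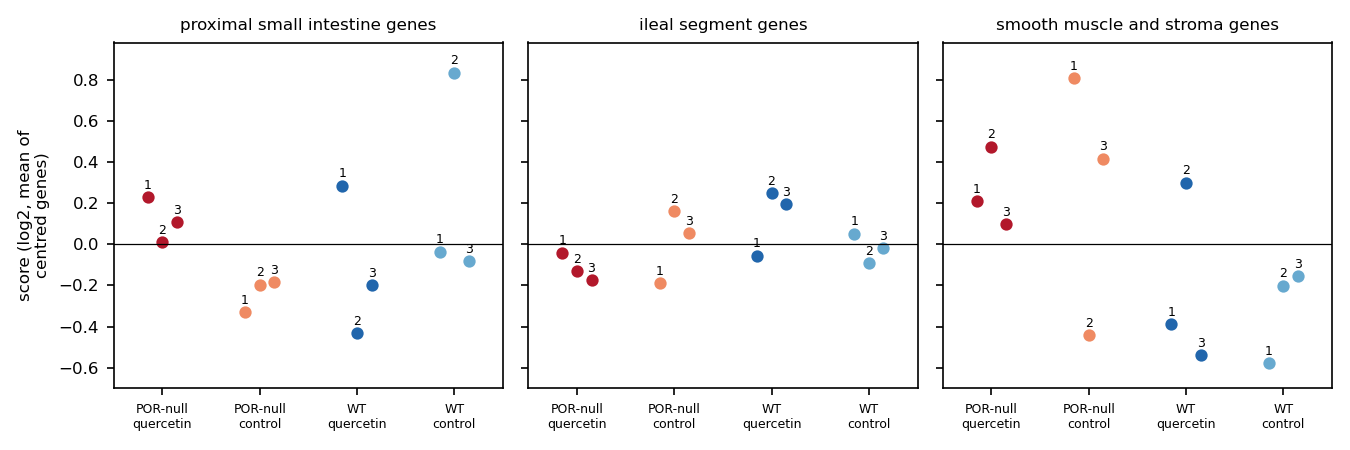
Score of proximal small intestine, ileal segment and smooth muscle and stroma genes in each array (vertical axis, log2, mean of genes after centring each on its 12-array mean), with replicate numbers beside the points. Wild-type control replicate 2 stands at 0.83 in the proximal panel, and POR-null control replicate 2 at -0.44 in the muscle panel lies among the wild-type arrays.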

How the data were processed

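The authors deposited log2 expression levels, 1 value per probe set and array, for Affymetrix 430A arrays; per the submitters' processing notes MAS5 and RMA were used, with roles and versions not given in the sources used here. Values (2.66 to 14.04) were used as deposited. The 64 array controls among the 22690 probe sets were dropped. Symbols came from the platform annotation, updated by gene ID through the GRCm38.p6 gene table for 20351 of the 20380 probe sets with 1 symbol; the position of probes within genes was not used here.

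With limma 3.58.1, 4 group means were fitted for each of the 22626 probe sets over the 12 arrays in R 4.3.3 (8 residual and 5.59 prior degrees of freedom, median SE 0.0886 for a difference between a pair of groups). Adjusted p is by Benjamini-Hochberg across the whole table, with a threshold of 0.05. The test was checked on simulated data. The number of arrays limits the precision.

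The genes and lists were chosen with earlier results of these data known. Named list members are the 4 with the smallest p on quercetin, and named similar genes the 3 highest correlations. Alternatives were normalization, centring, dim-probe filters, variance models, array weights, a replicate block, only the arrays compared, mean of a gene's probe sets and leaving out each array. Figures used matplotlib 3.10.9.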

Additional observations from a re-analysis of the deposited data

How the results depend on the processing

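Under all 21 alternatives 0 of the 5 genes passed limma's test between genotypes on quercetin, and the lowest adjusted p of a gene was 0.405 (Pklr). Each gene was followed by the probe set standing for it or by the mean of its probe sets. Other probe sets were not followed singly, among them 1421258_a_at of Pklr (limma, adjusted p = 0.34 as reported). In the fit as reported, 1585 of all probe sets had an unadjusted p under 0.05. Of all probe sets, 0 passed as reported, 5 with eBayes trend and robust, 2 with only the arrays compared, and 0 to 1 when an array was left out. Same-numbered arrays of different groups correlated at -0.18 to 0.16 in their deviations, with 3 of 18 pairs over 0.1. Differently numbered arrays were not compared, so whether the replicate numbers pair the arrays was not tested. With the replicate block, 2 of all probe sets passed. The cause was not tested. No sign on quercetin reversed, but G6pc, at 0.00, ran from -0.09 to 0.07 without an array. The count of genes higher in POR-null on the control diet was 4 to 5 when an array was left out, that of genes higher on quercetin than on control 3 to 4 in wild type and, in POR-null, 0 to 1 (as reported 1, Pck1, and 0 without POR-null control replicate 3). Averaging each gene's probe sets moved Pck1 to 0.56 (as reported 0.95) and Pklr to 0.33 (0.21) between genotypes on quercetin, and Glul to 0.55 (0.67) on control. It moved the diet effect in wild type to -0.42 for Pck1 (-0.76) and -0.01 for Pklr (0.15), that in POR-null to -0.04 for Pklr (-0.11), and the difference between diet effects to 0.58 for Pck1 (0.96) and -0.03 for Pklr (-0.26).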
